A study of Mus musculus with 8 samples.

Results

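The Slc25 family are carrier proteins, most of them of the inner mitochondrial membrane, and its genes were read here from arrays of embryonic mouse kidney. A gene was counted as a carrier when its probe set had 1 gene symbol on the platform's table and that symbol was Slc25a followed by a number. This gave 44 carriers, measured by 93 probe sets, of 18194 named genes and 45101 probe sets in all. Where a carrier had several probe sets, the brightest, with the highest mean over the 8 arrays, stood for it. Detected means a mean signal at or above the 40th percentile in at least 1 pool, which 39 carriers reached and 5 did not (Slc25a2, Slc25a31, Slc25a32, Slc25a40 and Slc25a41).

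Whole kidneys were taken at embryonic day 14.5 and 18.5 (E14.5 and E18.5) from matings of Lim1+/lacZ males that carried the Rarb2-Cre transgene with Lim1flox/flox females, on a mixed 129 / C57BL/6 / SJL/J background, with both sexes pooled. The mutants, Lim1flox/lacZ; Rarb2-Cretg/+, lose the transcription factor gene Lim1 (also called Lhx1) in the metanephric mesenchyme, where the transgene expresses Cre, and the ureteric bud lies outside that tissue. The controls, Lim1flox/+; Rarb2-Cretg/+, carry the same transgene and keep 1 wild-type allele, so every group carries Cre and a floxed allele. The lacZ allele is a null allele that the mutants alone carry, also outside the mesenchyme, so the genotypes differ in the ureteric bud too. The pools held the kidneys of 23 control (E14.5C) and 17 mutant (E14.5M) embryos at E14.5 and of 14 control (E18.5C) and 9 mutant (E18.5M) embryos at E18.5, and every pool's RNA was hybridised to 2 arrays. The duplicate arrays are technical, and each condition has 1 biological sample, so no test between 2 pools was made.

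The inner mitochondrial membrane is closed to most metabolites, and the carriers of that membrane move them across it in exchange for one another or with protons. Some serve ATP synthesis by bringing in ADP and phosphate, others feed the citrate cycle and the malate-aspartate shuttle, and others bring in cofactors, amino acids, iron or acylcarnitines. Proximal tubule and thick limb cells of the mature nephron are rich in mitochondria, and the mutant kidney is described as lacking nephrons.

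The median signal of an array ranged from 225 to 243, and the median fold between duplicates over the carriers was 1.10, 1.08, 1.06 and 1.13 in the E14.5C, E14.5M, E18.5C and E18.5M pools. The targeted gene Lhx1 had 2 probe sets, whose E18.5C/E18.5M ratios were 0.864 and 1.15 and whose E14.5C/E14.5M ratios were 1.23 and 0.865. Where these probe sets lie relative to the deleted part is not given in the sources used here, so they check neither genotype label. Of 9 proximal tubule markers 7 passed 2-fold size criteria as higher in E18.5C than in E18.5M, beside 1.75% of all genes. The summed signals of the list were 20786 to 21668 on the E18.5C arrays and 2189 to 2265 on the E18.5M arrays, and no other pool's arrays exceeded 2265. Median E18.5C/E18.5M ratios of other marker lists were 29.5 for loop of Henle, 2.97 for collecting duct and 0.588 for nephron progenitors. They were 0.83 for stroma, 0.697 for macrophages, 0.947 for distal and connecting tubule, 1.04 for podocytes and 1.05 for endothelium. In whole kidneys, fewer cells of a type and less RNA per cell cannot be told apart, and the part of cell content, tubule or other, in the results below was not tested.

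The carriers were not shifted far as a family. The median log2 ratio of the 44 carriers was 0.12 in E18.5C/E14.5C (0.09 to 0.19 over the 4 array pairings), against -0.01 for all 18194 genes. In E18.5M/E14.5M it was 0.02 (-0.03 to 0.04) against 0.02, in E18.5C/E18.5M 0.09 (0.08 to 0.12) against -0.03, and in E14.5C/E14.5M -0.02 (-0.05 to -0.01) against -0.01. The comparisons share pools and are given side by side only.

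Size criteria asked for a ratio of pool means of at least 2 that also exceeded the duplicate fold of each pool, a higher mean times ratio above 100, and both arrays of the higher pool at or above their 40th percentile. By these, 3 of 44 carriers rose in the controls from E14.5 to E18.5, beside 3.57% of all genes. None of the carriers was lower, beside 1.21% of genes. No carrier passed in either direction in E18.5M/E14.5M (0.896% of genes higher and 0.742% lower), in E18.5C/E18.5M (1.75% and 0.0989%) or in E14.5C/E14.5M (0.0715% and 0.0%). With the threshold lowered to 1.5, 7 carriers were higher in E18.5C/E14.5C (8.6% of genes) and 5 in E18.5C/E18.5M (4.11%), and none was lower (3.76% and 0.704%). At that threshold no carrier passed in E18.5M/E14.5M (2.96% of genes higher and 3.86% lower) or in E14.5C/E14.5M (0.231% and 0.286%).

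Small differences beyond the duplicates were more frequent. In E18.5C/E14.5C both later arrays lay above both earlier ones for 23 carriers (31.9% of genes did so) and below for 8 (30.4%). In E18.5M/E14.5M these counts were 11 (27.8%) and 7 (24.1%). In E18.5C/E18.5M they were 23 (21.1%) and 6 (22.8%), and in E14.5C/E14.5M 5 (15.8%) and 11 (21.8%). Stage differences without overlap ran in opposite directions in controls and mutants for 3 carriers (4.86% of genes), genotype differences in opposite directions at E18.5 and E14.5 for 9 (8.57%), and either for 11 (11.1%).

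The E18.5 control pool held the highest value for much of the family. Both E18.5C arrays lay above the other 6 for 19 of 44 carriers (43.2%), while 12.9% of all genes did so. Both arrays lay above the other 6 in E14.5C for 2 carriers (5.62% of genes), in E14.5M for 2 (5.22%) and in E18.5M for 1 (8.55%). Both lay below the other 6 in E14.5C for 7 (10.6%), in E14.5M for 1 (3.69%), in E18.5C for 3 (8.38%) and in E18.5M for 2 (5.35%). Among these 19 the ratio to E14.5C ranged from 1.08 to 2.37 with a median of 1.46, and the ratio to E18.5M from 1.05 to 1.92 with a median of 1.35. The count was 12 of 35 when carriers whose brightest probe set is of a kind that can match several transcripts (identifier ending in x_at, a_at or s_at) were left out, beside 11.9% of genes under the same restriction, a setting chosen after seeing the data. These counts rest on the brightest probe set. For Slc25a3 and Slc25a36, among the 19, another detected probe set had an E18.5C/E18.5M ratio below 1 (0.91 and 0.94).

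**Figure D1:**
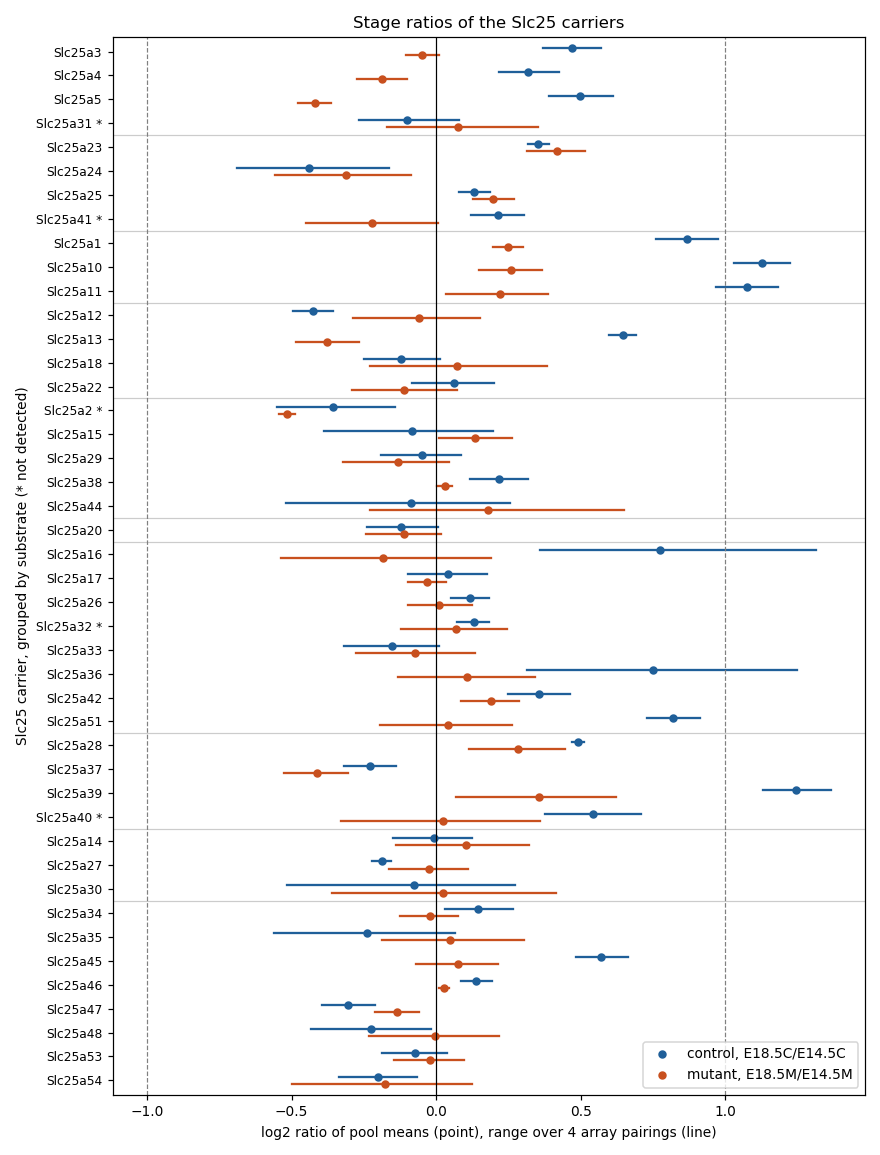
The log2 ratio of pool means from E14.5 to E18.5 is plotted for each of the 44 carriers in controls (blue) and mutants (orange), with lines for the range over the 4 array pairings, dashed lines at a 2-fold ratio, and grey lines between substrate groups. Slc25a39, Slc25a10 and Slc25a11 lie beyond 2-fold in the controls, and no mutant point does.

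The carriers of di- and tricarboxylates were the group with the largest median among the 10 substrate groups in E18.5C/E14.5C. They link the citrate cycle to the cytosol: Slc25a1 exports citrate, Slc25a10 exchanges malate or succinate for phosphate, and Slc25a11 exchanges 2-oxoglutarate for malate in the malate-aspartate shuttle. All 3 measured members were higher on both E18.5C arrays than on any E14.5C array, as were 31.9% of all genes. Their median log2 ratio was 1.07, against 0.25 in E18.5M/E14.5M and 0.61 in E18.5C/E18.5M.

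Slc25a10 gave signals of 493 and 516 on the E14.5C arrays, 505 and 527 on the E14.5M arrays, 1055 and 1150.5 on the E18.5C arrays and 584 and 651 on the E18.5M arrays. The E18.5C arrays stood alone at the top, the E18.5M arrays were next, and the E14.5 pools overlapped. The E18.5C/E14.5C ratio was 2.19 (range over pairings 2.04 to 2.34) and the E18.5M/E14.5M ratio 1.20 (range over pairings 1.11 to 1.29). E18.5C exceeded E18.5M by 1.79 (range over pairings 1.62 to 1.97).

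Slc25a11 gave 845 and 762 on the E14.5C arrays, 955 and 953 on the E14.5M arrays, 1653 and 1732 on the E18.5C arrays and 977 and 1247 on the E18.5M arrays. Its E18.5C arrays were again above all others, and its E14.5C arrays were below all others. The ratio was 2.11 (range over pairings 1.96 to 2.27) in E18.5C/E14.5C and 1.17 (range over pairings 1.02 to 1.31) in E18.5M/E14.5M. After quantile normalization its E18.5C/E14.5C log2 ratio was 0.96, under the 2-fold threshold.

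Slc25a1 gave 692 and 622 on the E14.5C arrays, 747 and 782 on the E14.5M arrays, 1223 and 1173 on the E18.5C arrays and 921 and 896 on the E18.5M arrays. The 4 pools did not overlap, in the order E14.5C, E14.5M, E18.5M and E18.5C. Its ratio was 1.82 (range over pairings 1.70 to 1.97) in E18.5C/E14.5C and 1.32 (range over pairings 1.27 to 1.36) in E18.5C/E18.5M, and it did not pass the 2-fold criteria.

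The iron and glutathione group held the carrier with the largest ratio in E18.5C/E14.5C. Slc25a39, which is needed for glutathione import into mitochondria, gave 1661 and 1479 on the E14.5C arrays, 1885 and 2106 on the E14.5M arrays, 3636 and 3811 on the E18.5C arrays and 2207 and 2901 on the E18.5M arrays. The E18.5C arrays lay above all others and the E14.5C arrays below all others. Its ratio was 2.37 (range over pairings 2.19 to 2.58) in E18.5C/E14.5C, 1.28 (range over pairings 1.05 to 1.54) in E18.5M/E14.5M and 1.46 (range over pairings 1.25 to 1.73) in E18.5C/E18.5M.

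Its relative Slc25a40 was not detected (mean signal 127) and had a log2 ratio of 0.54 in E18.5C/E14.5C. The mitoferrins, which bring iron into mitochondria, had stage ratios of opposite sign. Slc25a28 (mitoferrin-2) had log2 ratios of 0.49 in E18.5C/E14.5C and 0.28 in E18.5M/E14.5M, both with no overlap of arrays. Slc25a37 (mitoferrin-1, the form known from erythroid cells) had -0.23 and -0.41, also with no overlap. Of 13 erythroid markers listed, 9 were measured, so the list's sum does not cover all of them. Of these 9, only the embryonic globin genes Hbb-y and Hba-x passed as lower, in both stage comparisons, and none passed as higher. They carry the drop of the list's summed signal from 8906 to 10304 on the E14.5 arrays to 1800.5 to 1914 on the E18.5 arrays, while the list's median log2 ratio was -0.07 in E18.5C/E14.5C and 0.01 in E18.5M/E14.5M. In E18.5C/E14.5C 3 of the 9 lay higher on both arrays and 3 lower (31.9% and 30.4% of all genes). The part of erythroid content in the Slc25a37 values was not tested.

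The bases just upstream of the start are shown for the 3 carriers past 2-fold in E18.5C/E14.5C and for Slc25a5, from RefSeq promoter sequences on GRCm38.p6. Slc25a5 was added as a carrier higher in E18.5C than in E18.5M, while its E14.5 arrays overlapped between genotypes. Each line gives 120 bases that end at the last base before the start, 5′ to 3′ on the gene's strand, and capitals mark letters that match a searched motif.
Slc25a39 (chr11:102407518-102407637, minus strand): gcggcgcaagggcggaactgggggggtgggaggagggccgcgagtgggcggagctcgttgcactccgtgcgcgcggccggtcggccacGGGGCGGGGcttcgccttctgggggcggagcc
Slc25a10 (chr11:120491717-120491836, plus strand): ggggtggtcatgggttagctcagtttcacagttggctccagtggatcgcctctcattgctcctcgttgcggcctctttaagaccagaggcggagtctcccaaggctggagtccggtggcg
Slc25a11 (chr11:70647040-70647159, minus strand): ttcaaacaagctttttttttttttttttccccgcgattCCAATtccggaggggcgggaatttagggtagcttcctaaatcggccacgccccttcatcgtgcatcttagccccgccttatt
Slc25a5 (chrX:36795477-36795596, plus strand): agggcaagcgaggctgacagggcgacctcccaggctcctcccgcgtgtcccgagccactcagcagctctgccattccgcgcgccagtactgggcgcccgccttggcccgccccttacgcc

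The 10 motifs looked at are all given, each searched on both strands of the 250 bases before the start, in 43 promoters of 34 carriers and in all 32851 promoters. The choice was made with the values known, and some motifs may overlap. CCAAT stood in 46.5% of carrier promoters and 33.8% of all, the E-box CACGTG in 18.6% and 6.02%, and the ETS motif CCGGAAG in 14.0% and 6.91%. The GC box GGGGCGGGG stood in 9.3% and 10.4%, the NRF1 motif in 4.65% and 3.74%, and the TATA box TATAAA in 2.33% and 12.4%. The ERR motif TCAAGGTCA, the HNF4 motif CAAAGTCCA, the HNF1 motif and the YY1 motif AAGATGGCG matched 0 carrier promoters, and 0.387%, 0.384%, 0.0609% and 0.606% of all. Of the 4 printed, Slc25a39 held the GC box, Slc25a11 CCAAT, and Slc25a10 and Slc25a5 none of the 10. A match is a run of letters and was not tested as a binding site.

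**Figure D2:**
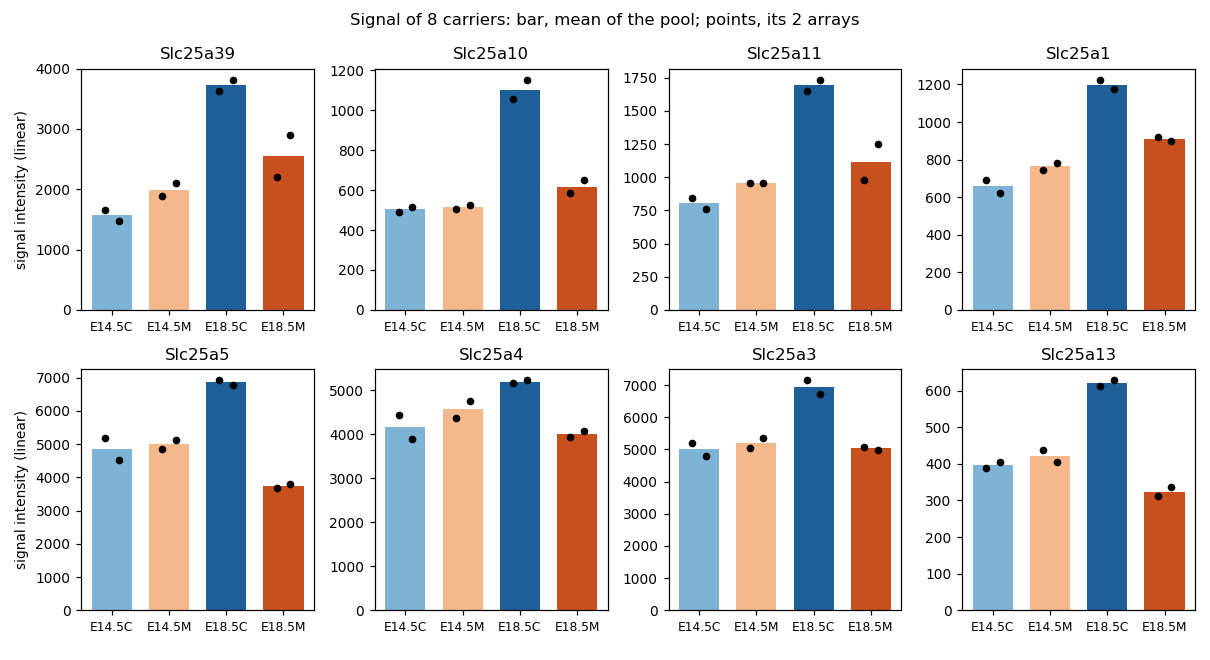
Bars give the mean linear signal intensity of each pool and points its 2 arrays, for 8 carriers in E14.5C, E14.5M, E18.5C and E18.5M. The E18.5C bar is the tallest in every panel, and for Slc25a5, Slc25a4 and Slc25a13 the E18.5M bar is the shortest.

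The ADP/ATP and phosphate carriers, which supply ATP synthase and export its product, included the 3 with the highest signals of the family, Slc25a3, Slc25a5 and Slc25a4, though signals of different probe sets are not on 1 scale. All 4 measured members, the undetected Slc25a31 among them, were higher on both E18.5C arrays than on the E18.5M arrays (21.1% of all genes were). Their median log2 ratio there was 0.42, and 3 were higher on both arrays in E18.5C than in E14.5C (31.9% of genes). None passed the 2-fold criteria by its brightest probe set.

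Slc25a5, the adenine nucleotide translocator ANT2, gave 5179 and 4529.8 on the E14.5C arrays, 4868 and 5131 on the E14.5M arrays, 6919.7 and 6791 on the E18.5C arrays and 3689 and 3786 on the E18.5M arrays. The E18.5C arrays were the highest and the E18.5M arrays the lowest, and the E14.5 pools overlapped. Its ratio was 1.41 (range over pairings 1.31 to 1.53) in E18.5C/E14.5C, 0.75 (range over pairings 0.72 to 0.78) in E18.5M/E14.5M and 1.83 (range over pairings 1.79 to 1.88) in E18.5C/E18.5M.

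Slc25a4, the translocator ANT1, gave 4446 and 3898 on the E14.5C arrays, 4378 and 4758 on the E14.5M arrays, 5167 and 5231 on the E18.5C arrays and 3939.6 and 4078 on the E18.5M arrays. Here too the E18.5C arrays were the highest, and both E18.5M arrays were below both E14.5M arrays. The ratio was 1.25 (range over pairings 1.16 to 1.34) in E18.5C/E14.5C and 0.88 (range over pairings 0.83 to 0.93) in E18.5M/E14.5M.

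Slc25a3, the phosphate carrier, gave 5210.5 and 4809 on the E14.5C arrays, 5059 and 5369 on the E14.5M arrays, 7146 and 6732 on the E18.5C arrays and 5089.9 and 4989.6 on the E18.5M arrays. The E18.5C arrays lay above the other 6, which overlapped between E18.5M and E14.5M. Its E18.5C/E18.5M ratio was 1.38 (range over pairings 1.32 to 1.43). The germ cell form Slc25a31 was not detected, with a mean signal of 30.3.

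The aspartate and glutamate carriers split. Slc25a13 (citrin), which exports aspartate for the malate-aspartate shuttle and the urea cycle, gave 389 and 404 on the E14.5C arrays, 438 and 404 on the E14.5M arrays, 612 and 628 on the E18.5C arrays and 313 and 336 on the E18.5M arrays. The E18.5C arrays were the highest and the E18.5M arrays the lowest of the 8. The ratio was 1.56 (range over pairings 1.51 to 1.62) in E18.5C/E14.5C, 0.77 (range over pairings 0.71 to 0.83) in E18.5M/E14.5M and 1.91 (range over pairings 1.82 to 2.01) in E18.5C/E18.5M.

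Its paralog Slc25a12 (aralar) had a log2 ratio of -0.43 in E18.5C/E14.5C by its brightest probe set, with no overlap. A second detected probe set gave 0.94, so the direction for Slc25a12 is not settled by these arrays. The glutamate carriers Slc25a18 and Slc25a22 had log2 ratios of -0.12 and 0.06 in E18.5C/E14.5C, with overlapping arrays.

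Among 8 measured carriers of cofactors and nucleotides, 6 were higher on both arrays in E18.5C/E14.5C (31.9% of all genes), the undetected Slc25a32 among them. In E18.5C/E18.5M 6 were higher (21.1% of genes), and none was lower in either comparison (30.4% and 22.8%). Slc25a51, which brings NAD into mitochondria, gave 954 and 1077 on the E14.5C arrays, 1186 and 1313 on the E14.5M arrays, 1798 and 1788 on the E18.5C arrays and 1147 and 1423 on the E18.5M arrays. Its E18.5C arrays were above all others and its E14.5C arrays below all others. The ratio was 1.77 (range over pairings 1.66 to 1.88) in E18.5C/E14.5C and 1.40 (range over pairings 1.26 to 1.57) in E18.5C/E18.5M.

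Slc25a36, a pyrimidine nucleotide carrier, gave 672 and 1059.5 on the E14.5C arrays, 1074 and 925 on the E14.5M arrays, 1596 and 1319 on the E18.5C arrays and 981 and 1171 on the E18.5M arrays. The E18.5C arrays lay above the rest, but the E14.5C duplicates differed by 1.58-fold. Its E18.5C/E14.5C ratio was 1.68 (range over pairings 1.24 to 2.38), with 1.38 without E14.5C array 1 and 2.17 without E14.5C array 2.

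Slc25a16, linked to coenzyme A import, was dim and gave 117 and 211 on the E14.5C arrays, 191 and 141 on the E14.5M arrays, 290.3 and 271 on the E18.5C arrays and 132 and 161 on the E18.5M arrays. The E18.5C arrays were the highest, and the other pools overlapped. Its E18.5C/E18.5M ratio was 1.92 (range over pairings 1.69 to 2.21), the largest of any detected carrier in that comparison, with 1.75 without E18.5M array 1 and 2.13 without E18.5M array 2. Its E14.5C duplicates differed by 1.81-fold, and the E18.5C/E14.5C ratio was 1.71 (range over pairings 1.28 to 2.48), with 1.33 without E14.5C array 1 and 2.40 without E14.5C array 2.

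The remaining cofactor carriers varied less. Slc25a42 (coenzyme A) had log2 ratios of 0.35 in E18.5C/E14.5C and 0.19 in E18.5M/E14.5M, both without overlap. Slc25a26 (S-adenosylmethionine), Slc25a17 (peroxisomal) and Slc25a33 (pyrimidine nucleotides) had 0.12, 0.04 and -0.15 in E18.5C/E14.5C. Slc25a32 was not detected.

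The calcium-regulated ATP-Mg/phosphate carriers adjust the adenine nucleotide pool of the matrix, and for 3 of 4 the arrays of the stages did not overlap in either genotype. Of all genes, 31.9% lay higher and 30.4% lower without overlap in controls, and 27.8% and 24.1% in mutants. Slc25a23 gave 463 and 485 on the E14.5C arrays, 430.0 and 438 on the E14.5M arrays, 606 and 605 on the E18.5C arrays and 614 and 544 on the E18.5M arrays. Both E18.5 pools lay above both E14.5 pools, with ratios of 1.28 (range over pairings 1.25 to 1.31) in controls and 1.33 (range over pairings 1.24 to 1.43) in mutants. Slc25a24 was lower at E18.5 by its brightest probe set, with log2 ratios of -0.44 in controls and -0.31 in mutants and no overlap in either. Its other detected probe set gave -0.04 and 0.14, the second again with no overlap, so the sign in mutants turns with the probe set. The summed signal of 9 dividing-cell markers ran from 18363 to 20280 on the E14.5 arrays and from 9923 to 11931 on the E18.5 arrays, and its part in the Slc25a24 values was not tested. Slc25a25 had 0.13 and 0.20, and Slc25a41 was not detected.

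By their brightest probe sets, the detected amino acid carriers were close to level. Slc25a15, the ornithine carrier and one of the 6 brightest of the family, gave 1342 and 1189 on the E14.5C arrays, 1277 and 1136 on the E14.5M arrays, 1026 and 1363 on the E18.5C arrays and 1286 and 1361 on the E18.5M arrays. The pools overlapped in E18.5C/E14.5C and in E18.5C/E18.5M. Slc25a38 (glycine), Slc25a29 (basic amino acids) and Slc25a44 (branched-chain amino acids) had log2 ratios of 0.22, -0.05 and -0.09 in E18.5C/E14.5C, and by these probe sets the arrays of the first alone did not overlap. Over 5 detected probe sets the ratio of Slc25a29 ran from 0.80 to 1.03, and over 3 that of Slc25a44 ran from 0.76 to 0.94. The lowest for each carrier came with no overlap of arrays. Slc25a2 was not detected.

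Slc25a20, which exchanges acylcarnitines for carnitine and so carries fatty acids to oxidation, gave 607 and 694 on the E14.5C arrays, 555 and 589 on the E14.5M arrays, 588 and 609.6 on the E18.5C arrays and 498 and 561 on the E18.5M arrays. The pools overlapped in both stage comparisons, and the E18.5C arrays lay above the E18.5M arrays with a ratio of 1.13 (range over pairings 1.05 to 1.22). Of 10 measured partners of fatty acid import, 4 passed as higher in E18.5C/E14.5C (3.57% of all genes): Acadm 4.17-fold, Acadl 2.37-fold, Acadvl 2.26-fold and Cpt1a 2.12-fold. Acadm, Acadl and Acadvl start the oxidation of medium, long and very long chains, and Cpt1a makes the acylcarnitines. The list's median log2 ratio was 0.89, against -0.12 for Slc25a20. The other detected probe set of Slc25a20 gave 0.32 with no overlap of arrays, so the sign for Slc25a20 depends on the probe set.

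The uncoupling protein-like carriers Slc25a14, Slc25a27 and Slc25a30 had log2 ratios of -0.01, -0.19 and -0.08 in E18.5C/E14.5C, and the arrays of Slc25a27 alone did not overlap. Of 8 members whose substrate is unknown or unsettled, or that carry none, Slc25a45 had the largest ratio. It gave 576 and 515 on the E14.5C arrays, 525 and 547 on the E14.5M arrays, 816 and 805 on the E18.5C arrays and 609 and 520.5 on the E18.5M arrays, with the E18.5C arrays above the other 6 and an E18.5C/E14.5C ratio of 1.49 (range over pairings 1.40 to 1.58). Slc25a47, Slc25a48 and Slc25a54 lay lower on both E18.5C arrays than on the E14.5C arrays, with log2 ratios of -0.30, -0.23 and -0.20, and the other 4 had log2 ratios between -0.24 and 0.15.

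At E14.5 the genotypes were close. The log2 ratio E14.5C/E14.5M ranged over the carriers from -0.35 to 0.25. The lowest was Slc25a39 at 0.79 (range over pairings 0.70 to 0.88) as a ratio, and the next were Slc25a51 at 0.81 and Slc25a11 at 0.84, each with no overlap of arrays. The highest of the detected carriers was Slc25a12 at 1.18, but its other detected probe set gave 0.91. Among further probe sets of Slc25a39 and Slc25a51 the log2 ratio reached 0.09 and 0.13.

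**Figure D3:**
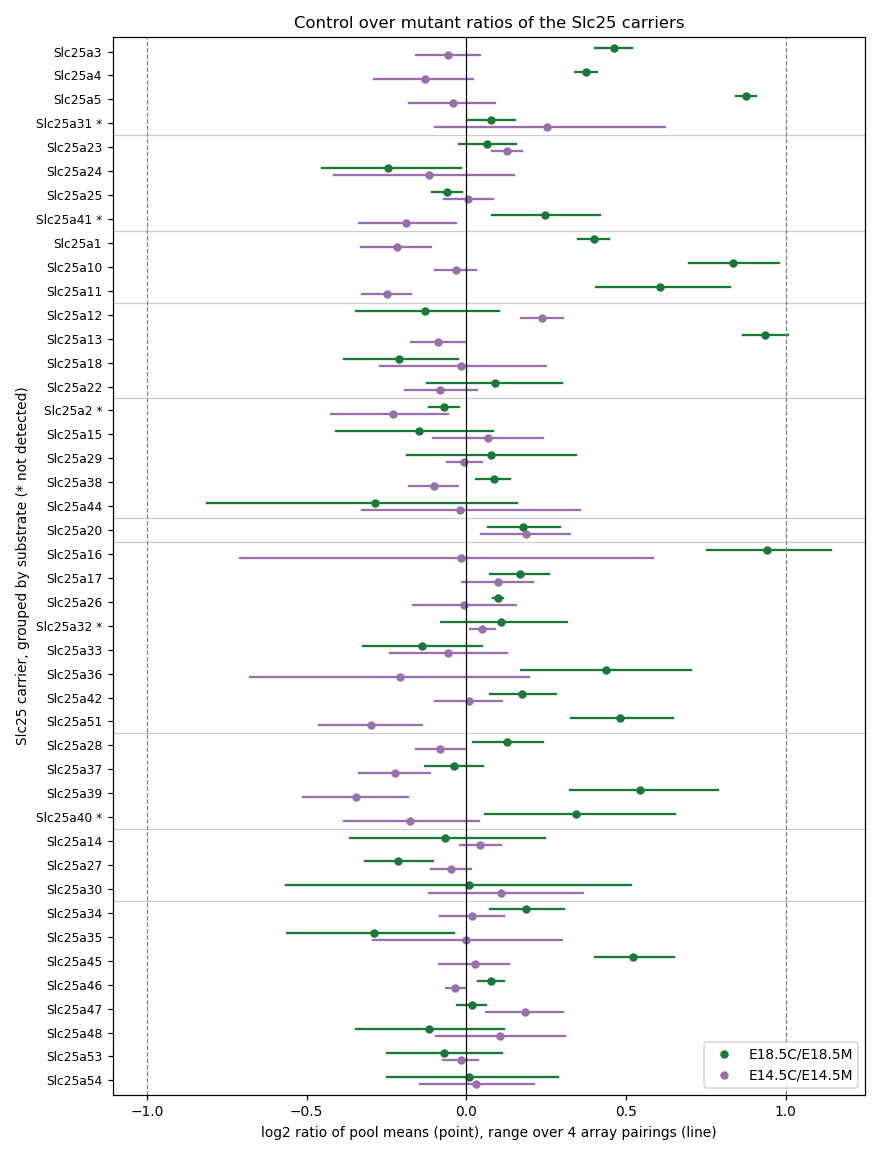
The log2 ratio of control over mutant pool means is plotted for each of the 44 carriers at E18.5 (green) and E14.5 (purple), with lines for the range over the 4 array pairings and dashed lines at a 2-fold ratio. No point lies beyond 2-fold, and the highest green points are Slc25a16, Slc25a13, Slc25a5 and Slc25a10.

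The choice of probe set mattered for some carriers. Slc25a5 had 8 detected probe sets, and each was higher in E18.5C than in E18.5M, with log2 ratios from 0.88 to 1.66. By 5 of the 8 it passed the 2-fold criteria there (2.23% of genes pass by any probe set), and by 3 it fell in E18.5M/E14.5M (1.49% of genes). Its brightest probe set gave the smallest E18.5C/E18.5M ratio of the 8. All but a single probe set of Slc25a5 are of the kinds that can match several transcripts, and the exception gave a log2 ratio of 1.27 there. Counted by any probe set, 3 carriers were higher in E18.5C/E14.5C (4.75% of genes) and none lower (2.94%), none was higher in E18.5M/E14.5M (1.35%) or lower in E18.5C/E18.5M (0.165%), and none differed in E14.5C/E14.5M (0.121% higher and 0.0055% lower).

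The probe sets of Slc25a39 ranged from -0.17 to 1.54 on the log2 scale in E18.5C/E14.5C, and 2 of 5 passed the criteria. Both are of the kinds that can match several transcripts, and with those kinds left out 2 carriers, Slc25a10 and Slc25a11, were higher in that comparison. The 2 probe sets of Slc25a10 gave 1.13 and 0.44. Over the 19 carriers with several detected probe sets, all of a carrier's probe sets had 1 sign for 9 in E18.5C/E14.5C, 11 in E18.5M/E14.5M, 12 in E18.5C/E18.5M and 8 in E14.5C/E14.5M. The sign varied in E18.5C/E14.5C for Slc25a3 (-0.10 to 0.47), Slc25a12, Slc25a15, Slc25a17, Slc25a20, Slc25a25, Slc25a29, Slc25a30, Slc25a39 and Slc25a51 (-0.08 to 0.82). In E18.5C/E18.5M it varied for Slc25a3 (-0.14 to 0.46) and Slc25a36 (-0.10 to 0.44), among others.

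**Figure D4:**
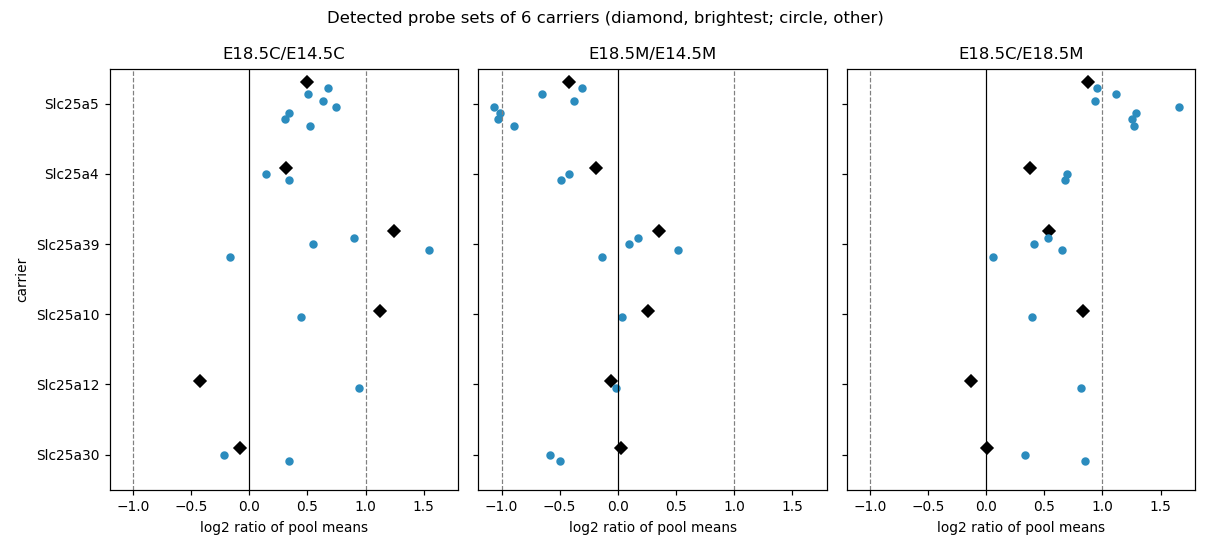
Each point is 1 detected probe set of 6 carriers, on the log2 ratio of pool means in 3 comparisons, with a diamond for the brightest and dashed lines at 2-fold. All 8 points of Slc25a5 are above 0 in E18.5C/E18.5M and below 0 in E18.5M/E14.5M, and the points of Slc25a12 lie on both sides of 0 in E18.5C/E14.5C.

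The lists of enzymes that work with the carriers had larger medians at E18.5, a difference that was not tested. Of 13 enzymes of the malate-aspartate shuttle and citrate cycle, all 13 were higher on both E18.5C arrays than on the E18.5M arrays (21.1% of all genes were). Their median log2 ratio was 0.82, beside 0.09 for the carriers. In E18.5M/E14.5M the median was -0.36, with 8 of 13 lower on both arrays (24.1% of genes). Got1, the cytosolic aspartate aminotransferase, passed as higher in E18.5C/E14.5C (2.16-fold) and in E18.5C/E18.5M (2.08-fold). Dlst passed in the first (2.28-fold), and Idh3a and Fh1 in the second (2.20-fold and 2.03-fold). Of all genes, 3.57% and 1.75% passed as higher in these 2 comparisons.

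Of 18 measured genes of mitochondrial content, such as respiratory chain subunits, 17 were higher on both arrays in E18.5C/E18.5M (21.1% of all genes were). The list's median log2 ratio there was 0.61. The 2-fold criteria were passed by 4 (1.75% of genes): Cycs, Uqcrc2, Ndufs1 and Cyc1, at 2.23-fold, 2.13-fold, 2.11-fold and 2.09-fold. In E18.5C/E14.5C the median was 0.67, and Uqcrc1 (2.34-fold) and Cox5a (2.00-fold) passed, beside 3.57% of genes. Of 10 partners of ornithine, glutamate and glycine, 3 passed in E18.5C/E14.5C (3.57% of genes) and 4 in E18.5C/E18.5M (1.75%). They were led by Gatm, the first enzyme of creatine synthesis, at 17.5-fold and 19.7-fold, and then Glud1 at 2.86-fold and 2.56-fold. The median log2 ratios of this list were 0.60 and 0.80.

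Of 9 partners of iron and heme, Cpox, a heme synthesis enzyme, passed in both comparisons (2.87-fold and 2.93-fold). Iscu passed in E18.5C/E14.5C (2.05-fold) and the transferrin receptor gene Tfrc in E18.5C/E18.5M (2.40-fold), beside 3.57% and 1.75% of all genes. Of 8 family members under other symbols and other gates, Mtch1 and Mpc1 passed in E18.5C/E14.5C, at 3.16-fold and 2.19-fold. Mpc1 is a subunit of the mitochondrial pyruvate carrier.

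**Figure D5:**
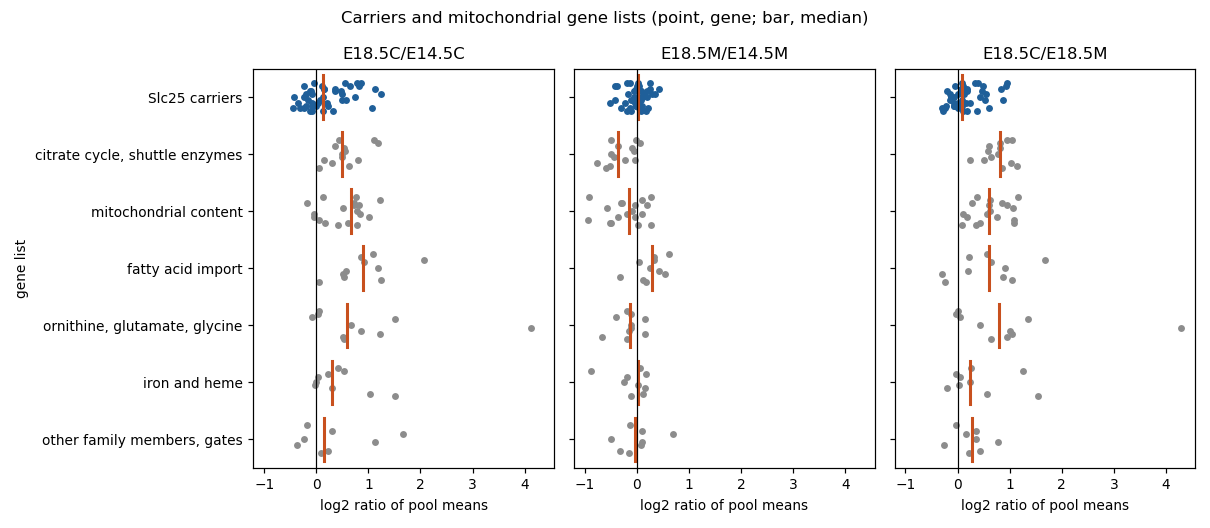
Points are genes and orange bars medians of the log2 ratio of pool means, for the 44 carriers (blue) and 6 lists of partner genes (grey) in 3 comparisons. In E18.5C/E18.5M the medians are 0.09 for the carriers and 0.82 for the citrate cycle and shuttle enzymes.

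An additive limma fit of stage and genotype to the 4 pool means, on log2(signal + 1) with 1 residual degree of freedom, tested 39 carriers among 27061 probe sets. None of the carriers passed a Benjamini-Hochberg adjusted p of 0.05 for stage, where 3.42% of probe sets were called higher and 5.2% lower, or for genotype, where 0.0% were called in either direction. At an unadjusted limma p under 0.05, 6 carriers were higher and 2 lower at E18.5 (13.6% and 14.2% of probe sets), and none differed by genotype (1.7% and 2.16%). Slc25a39 had the lowest adjusted limma p for stage, 0.107, with a log2 difference of 0.80 (SE 0.23). Leaving out E18.5M array 1 brought it to 0.0429 in limma. The fit takes the stage effect as equal in both genotypes, so a difference present in E18.5C alone adds to its residual.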

How the data were processed

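RNA of 4 pools of mouse kidneys was hybridised to 8 Affymetrix whole-genome mouse arrays, 2 target preparations per pool. The deposited values are signal intensity on a linear scale. The study's methods describe scaled signals from Microarray Suite, then invariant-set normalization in dChip, and do not say how dChip summarised a probe set. The array medians of the deposited table are higher than the medians those methods give after normalization, and the reason is not known. The authors deposited each duplicate as its own column, and precision is limited by having 2 arrays a pool. The platform's table gave 34958 of 45101 probe sets 1 gene, 932 several and 9211 none, and 34754 matched RefSeq by gene identifier.

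Duplicates were averaged arithmetically before a ratio was formed, and its error is the range over the 4 array pairings (16 combinations for a difference of stage ratios). The 2-fold criteria followed the study's methods, with the 40th percentile in place of present calls. limma 3.58.1 in R 4.3.3 was fitted to pool means, leaving out probe sets below the 40th percentile, and ratios were computed in Python 3.11.15 with pandas 2.3.3. Both calculations were run on simulated data to check the code. The share of true 2-fold changes that the limma fit can recover is not given here. Named carriers are those past the criteria, the 5 highest and 5 lowest detected ratios of each comparison, the 6 brightest, and members of paralog pairs. From other lists, those past the criteria were named, at most 4 per list and comparison. The members, lists and motifs were chosen with earlier results of these data known. Alternatives were other thresholds, normalizations, offsets and probe sets, and each array left out. Protein identity of paralogs was not analysed here.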

Additional observations from a re-analysis of the deposited data

Results flagged for a closer look

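For 11 of 44 carriers the arrays moved in opposite directions in the 2 groups of a contrast (25.0%, beside 11.1% of all genes). By stage these were 3 (4.86% of genes) and by genotype 9 (8.57%), with 1 in both. The values below are the log2 stage ratio in controls minus that in mutants, which equals the log2 ratio of control over mutant at E18.5 minus that at E14.5. The difference was not tested, since each condition has 1 pool.

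For Slc25a4 (0.51), Slc25a5 (0.92) and Slc25a13 (1.02), both E18.5C arrays lay above both E14.5C arrays and both E18.5M arrays below both E14.5M arrays. Slc25a13 and 8 further carriers lay higher in controls than in mutants at E18.5 and lower at E14.5, on both arrays each time. At E14.5 the nearest arrays of the genotypes were all but equal for Slc25a13 (404.2 and 404.4), with a highest pairing ratio of 0.999, and that ratio was 0.998 for Slc25a28 and 0.996 for Slc25a46. The others were Slc25a39 (0.89), Slc25a11 (0.85), Slc25a51 (0.78) and Slc25a1 (0.62), and, with smaller values, Slc25a28 (0.21), Slc25a38 (0.19) and Slc25a46 (0.11). The last was Slc25a41 (0.44), which was not detected.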

How the results depend on the processing

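The count of 3 carriers higher in E18.5C/E14.5C was 7 at a ratio of 1.5, and 3 to 5 with an array left out, the 5 without E14.5C array 2, where Slc25a16 and Slc25a36 were added. In E18.5C/E18.5M the count of 0 became 5 at a ratio of 1.5, 1 by any probe set, 1 with the brightest probe set not ending in x_at, a_at or s_at (an alternative chosen after seeing the data), and 0 to 1 with an array left out, the 1 being Slc25a16 without E18.5M array 2. The count of carriers lower in E18.5M/E14.5M was 1 by any probe set in place of 0. The median log2 ratio of the carriers was 0.065 (E18.5C/E14.5C) and -0.013 (E18.5M/E14.5M) after quantile normalization, and 0.13 (E18.5C/E18.5M), -0.050 (E14.5C/E14.5M) and 0.18 (stage change in controls minus mutants, 0.11 as reported) after median scaling. The last was 0.16 with the mean over probe sets. With an array left out, the medians ran from -0.033 to 0.024 in E18.5M/E14.5M, from 0.090 to 0.13 in E18.5C/E18.5M and from -0.055 to -0.0105 in E14.5C/E14.5M. The limma count of carriers higher at E18.5 was 0 to 1 with an array left out, the 1 being Slc25a39 without E18.5M array 1. For genotype, limma called 44 probe sets higher and 1 lower without E18.5M array 2, with 0 carriers among them. Median scaling moved the median of all genes by nearly the same amounts as the carriers, 0.04 (E18.5C/E18.5M), -0.03 (E14.5C/E14.5M) and 0.07 (stage change in controls minus mutants). The cause of the other shifts was not tested. Single carriers were followed only for the 12 ratios that passed the criteria at 1.5, a choice that makes a change of sign unlikely. None of these changed sign in 96 recalculations, and 11 of the recalculated values moved by more than 1 SD over the pairings. The other carriers' ratios were not followed in this way. No paired analysis was possible because the array numbers name technical preparations of 1 RNA pool, which were averaged before any fit.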

Other observations

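The duplicates of a pool differed by over 1.5-fold for 2 carriers in E14.5C, 1 in E14.5M, 2 in E18.5C and 0 in E18.5M. Slc25a44, a branched-chain amino acid carrier, gave 519.9 and 868 on the E18.5C arrays and 911 and 582 on the E14.5M arrays. Slc25a30 gave 540.3 and 885 on the E18.5C arrays. These spreads were larger than the differences between pools for both carriers by their brightest probe sets. Another detected probe set of Slc25a30 gave 471 and 527 on the E18.5C arrays against 321 and 232 on the E18.5M arrays, a ratio of 1.80 (range over pairings 1.47 to 2.27).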
